A study of Mus musculus with 16 samples.

Results

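Npas2 and 9 other transcripts of the circadian clock, Arntl, Clock, Per1, Per2, Per3, Cry1, Cry2, Nr1d1 and Dbp, were followed in sorted neurons of the mouse basolateral amygdala (BLA) and gustatory cortex (GC). The 10 genes were found by name among the 31469 features listed for each library, and each name occurred once. Npas2 was singled out with its levels in these libraries already known, so its own differences are given as a description with no p-value. The other 9 were named as its partners, repressors and targets in the clock.

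All mice were males of the YFP-H line (B6.Cg-Tg(Thy1-YFP)HJrs/J) at postnatal day 60 to 80, in which the Thy1 promoter drives yellow fluorescent protein (YFP) in a subset of projection neurons. For conditioned taste aversion (CTA) a mouse drank 0.5% saccharin for 30 min and was then injected i.p. with 0.15 M LiCl at 2% of body weight, which causes gastric malaise. Taste control mice drank the same saccharin and were injected with saline. Water access was restricted in all groups, and YFP+ neurons were picked by hand 4 hr after training. There were 4 libraries of BLA neurons after CTA, 4 of BLA neurons from taste controls, 4 of GC neurons after CTA and 4 of GC neurons from taste controls, 16 in all. Whether BLA and GC libraries came from the same mice, how many mice went into a library and the clock hour of each harvest are not given in the sources used here, so the p-values measure the spread between libraries.

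The clock is a feedback loop of transcription. BMAL1, the protein of Arntl, pairs with CLOCK or with its close relative NPAS2, which is prominent in the forebrain, and the pair binds E-boxes in the genes of the Per, Cry and REV-ERB proteins and of Dbp. PER and CRY proteins return to repress the pair, REV-ERB alpha (from Nr1d1) represses Arntl and Npas2 through ROR elements, and DBP drives genes through D-boxes. The level of most of these transcripts therefore depends on the time of day at which a tissue is taken, with the activators and their targets peaking in opposite phases.

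Both kinds of site could be found by their letters near the start sites of members. RefSeq start-site windows (GRCm38.p6, 250 bases before to 50 after the start) were held for 9 of the 10 members, 13 windows in all, and were searched on both strands for the E-box CACGTG and the core of the ROR element, TAGGTCA. The ROR core was added to the search after the levels had been seen. The E-box occurred in windows of Per1 and Cry1, and the ROR core in a window of Arntl. These 3 stretches of 30 bases are shown because they hold the letters that BMAL1 pairs (Per1, Cry1) and REV-ERB proteins (Arntl) are known to bind, with the motif in capitals, 5′ to 3′ on the strand of the gene.
Arntl, chr7:113207529-113207558, plus strand, ROR core beginning 30 bases after the start site: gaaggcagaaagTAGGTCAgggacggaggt
Cry1, chr10:85185097-85185126, minus strand, E-box beginning 60 bases before the start site: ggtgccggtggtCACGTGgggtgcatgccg
Per1, chr11:69098771-69098800, plus strand, E-box beginning 166 bases before the start site: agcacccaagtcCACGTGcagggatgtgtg
Of all 32851 windows, 7.15% held the E-box and 2.61% the ROR core, so a match is a description of the letters and not of a bound site. The single window of Npas2 held neither motif.

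Levels are given in TPM, a measure of transcript share that the authors scaled to the same total in each library. TPM takes account of transcript length, so genes can be compared within a library. In BLA neurons the order of mean levels (n = 8, both training groups) was Cry2 at 95.8 ± 24.7 TPM, Nr1d1 at 71.1 ± 20.7, Dbp at 43.7 ± 14.8, Npas2 at 40.5 ± 16.3, Clock at 39.5 ± 10.3, Arntl at 20.8 ± 6.71, Per3 at 19.7 ± 5.70, Per1 at 18.4 ± 11.1, Per2 at 15.9 ± 7.95 and Cry1 at 3.86 ± 1.55 TPM (SD). In GC neurons it was Nr1d1 at 126 ± 23.6 TPM, Cry2 at 92.4 ± 18.5, Dbp at 56.8 ± 11, Clock at 53.7 ± 13.8, Npas2 at 43.3 ± 15.9, Per1 at 33.9 ± 4.97, Arntl at 29.4 ± 7.55, Per3 at 25.1 ± 5.75, Per2 at 19.5 ± 4.96 and Cry1 at 5.88 ± 1.91 TPM. Many neighbours in these orders lay within their spread. Npas2 and Clock, which compete for BMAL1, could not be ordered in the BLA, where Npas2 was the higher in 2 of 8 libraries although its mean was above that of Clock. Cry1, at 1.92 to 8.61 TPM over the 16 libraries, ended both orders, and Per2 stood above it in 7 of 8 BLA and 8 of 8 GC libraries. Nr1d1 stood above Cry2 in 7 of 8 GC libraries, while Cry2 stood above Nr1d1 in 7 of 8 BLA libraries.

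**Figure D1:**
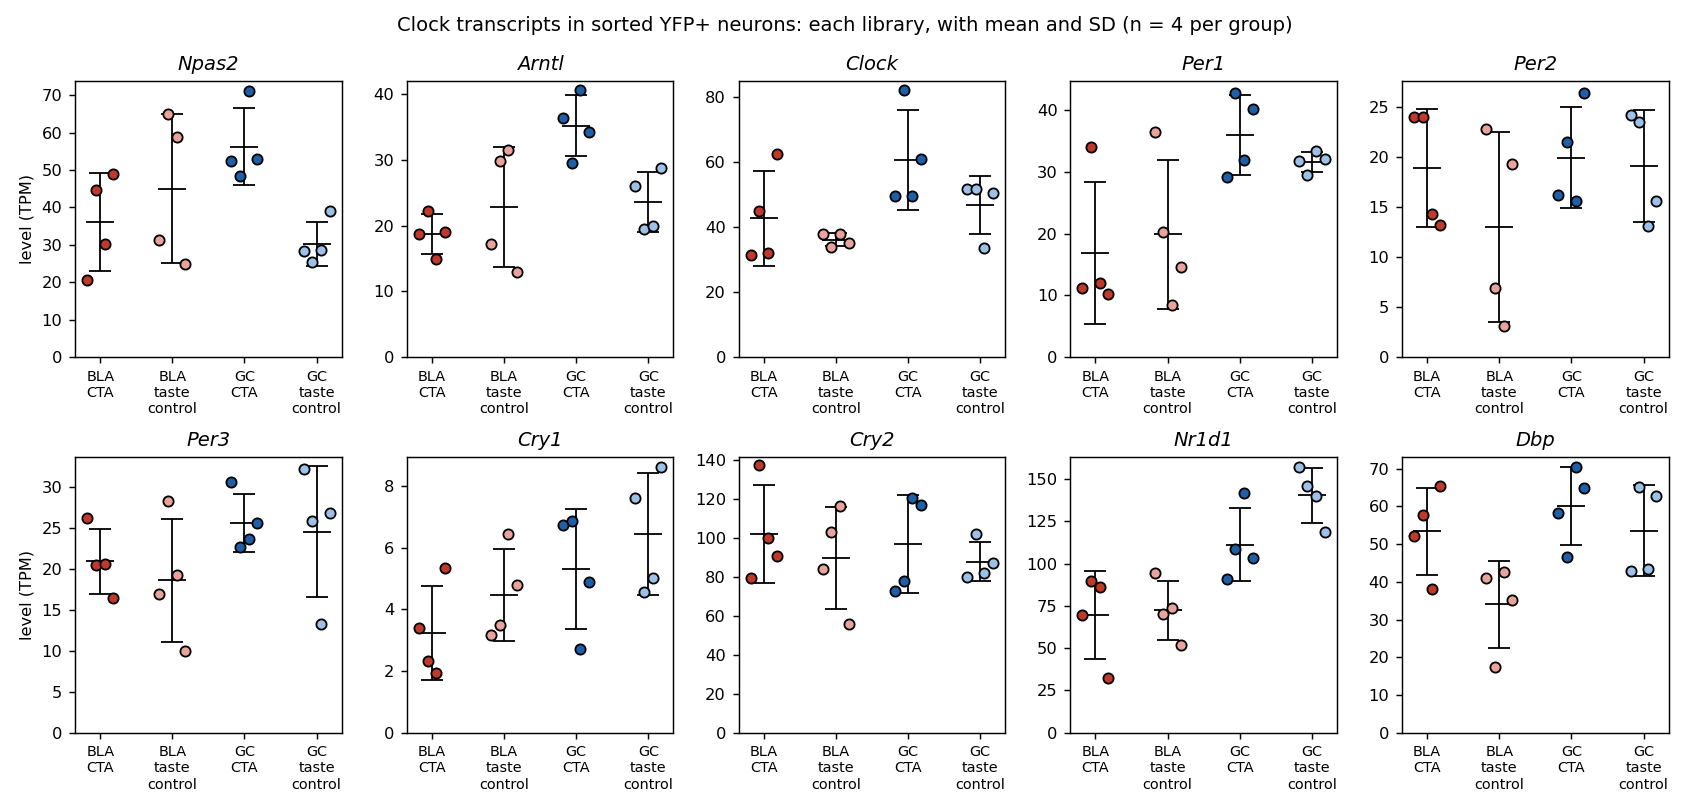
Level of each of the 10 clock transcripts in TPM (vertical axis, linear from 0), 1 point a library, in BLA and GC neurons after CTA and in taste controls, with the group mean and SD (n = 4 per group). Npas2 and Arntl in the GC were the 2 panels in which all CTA libraries of a region were above all its taste controls.

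Npas2 lies at chr1:39193731-39363236 and Arntl at chr7:113207465-113314126, both on the plus strand (GRCm38). Training was compared first in GC neurons, where Npas2 and its partner Arntl were higher in all CTA libraries than in any taste control library. Npas2 stood at 52.5, 48.3, 71.3 and 53.1 TPM in GC neurons after CTA, against 28.3, 25.4, 28.6 and 38.9 TPM in GC neurons of taste controls. The lowest CTA library was above the highest taste control library. The means were 56.3 ± 10.2 TPM after CTA and 30.3 ± 5.93 TPM in taste controls (SD, n = 4 each), 1.86-fold higher after CTA. On the log2(TPM + 1) scale used for all differences here, the difference was 0.87 (SE 0.21), and between 0.76 and 1.0 with any 1 library left out.

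Arntl, which encodes the BMAL1 subunit that NPAS2 needs to bind DNA, stood at 36.5, 29.5, 40.6 and 34.2 TPM in GC neurons after CTA, against 26.1, 19.5, 20.0 and 28.7 TPM in GC neurons of taste controls. The groups did not overlap, although the gap between the lowest CTA library and the highest taste control library was small. The means differed 1.5-fold, 35.2 ± 4.63 TPM after CTA and 23.6 ± 4.56 TPM in taste controls, a log2 difference of 0.57 (SE 0.22). Compared by mean TPM, all exact arrangements of the libraries (a two-sided permutation test) gave p = 0.0286, the smallest that 4 libraries against 4 allow, and the unadjusted limma p was 0.0209. With Benjamini-Hochberg adjustment over all 15278 features tested the limma p was 0.9996, so Arntl did not pass the test. Of all features tested 2.21% had groups that did not overlap (1.01% with CTA higher), against 2 of the 10 members, 1 of which is Npas2 itself.

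No feature at all was called in this comparison at an adjusted p under 0.05 by limma (percent called 0), 573 features (3.75%) had an unadjusted p under 0.05, and Arntl was the single one among the 9 members other than Npas2. Clock, the alternative partner of BMAL1, had 49.6, 82.3, 49.6 and 60.9 TPM in GC neurons after CTA, against 51.8, 51.7, 33.4 and 50.4 TPM in taste controls. These groups overlapped, and the log2 difference of 0.36 (SE 0.22) was close to the spread between libraries (adjusted p = 0.9996). Npas2 per Clock had a median of 0.965 in GC neurons after CTA and of 0.659 in taste controls, with overlapping ranges of 0.587 to 1.44 and 0.492 to 0.856. The ratio of Npas2 to Arntl ran between 1.44 and 1.75 after CTA and between 1.09 and 1.43 in taste controls, ranges that came close without overlapping. Both ratios contain Npas2, whose levels were already known, and neither was tested.

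Among the repressors, Nr1d1 lay the other way in the GC, though with overlap. It had 90.9, 108, 142 and 103 TPM after CTA, against 157, 146, 140 and 119 TPM in taste controls. Only the third CTA library lay within the range of the taste controls. The log2 difference was -0.35 (SE 0.17), the unadjusted limma p 0.0589, the exact permutation p 0.0857 and the adjusted p = 0.9996. The ratio of Arntl to Nr1d1, an activator over its own repressor, ran between 0.272 and 0.401 in GC neurons after CTA (median 0.309) and between 0.133 and 0.242 in taste controls (median 0.154), with no overlap. In BLA neurons the same ratio overlapped, at 0.172 to 0.586 after CTA (median 0.258) and 0.182 to 0.428 in taste controls (median 0.336). The ratio was formed after the levels had been seen and was not tested.

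The remaining members showed little in the GC. The period genes, whose proteins close the loop, gave log2 differences of 0.16 (SE 0.20) for Per1, 0.07 (SE 0.28) for Per2 and 0.12 (SE 0.27) for Per3. The cryptochromes, which repress the BMAL1 pair directly, gave -0.26 (SE 0.37) for Cry1 and 0.11 (SE 0.20) for Cry2. Dbp, a direct output of the loop, gave 0.17 (SE 0.21). All these groups overlapped. Of the 9 members other than Npas2, 7 had a positive and 2 a negative difference, with a median of 0.12. The median over all features was -0.01, and 48.8% of them were positive.

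In BLA neurons the training groups overlapped for Npas2 and for Arntl. Npas2 had 20.5, 44.7, 30.1 and 48.9 TPM after CTA, against 31.2, 65.1, 58.8 and 24.8 TPM in taste controls. Within each group the highest library was more than 2-fold above the lowest. The means were 36.0 ± 13.1 TPM after CTA and 45.0 ± 19.9 TPM in taste controls, a log2 difference of -0.28 (SE 0.40). Arntl had 18.8, 22.3, 14.9 and 19.1 TPM in BLA neurons after CTA, against 17.2, 29.8, 31.5 and 12.9 TPM in taste controls. All 4 CTA libraries lay inside the range of the taste controls, and the log2 difference was -0.20 (SE 0.40, adjusted p = 0.999).

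Dbp and Per2, both targets of the BMAL1 pairs, had the largest positive differences among the members in the BLA, and neither passed the test. Dbp had 52.3, 57.7, 38.2 and 65.4 TPM in BLA neurons after CTA, against 41.2, 17.4, 42.6 and 35.2 TPM in taste controls. Only the third CTA library was within the range of the taste controls, and the log2 difference was 0.68 (SE 0.35, unadjusted limma p = 0.0725, exact permutation p = 0.0857, adjusted p = 0.999). Of the exonic bases of Dbp, 539 (18%) are shared with Sphk2 on the other strand, and those reads cannot be told apart. Per2 had 23.9, 23.9, 14.3 and 13.2 TPM after CTA, against 22.7, 6.92, 3.06 and 19.2 TPM in taste controls. Its difference of 0.78 (SE 0.58) had the largest standard error of the 10 members, and taste control libraries 2 and 3 were far below the other taste controls.

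For the other members in the BLA, Per1 gave -0.22 (SE 0.53), Per3 0.23 (SE 0.41), Cry1 -0.40 (SE 0.55), Cry2 0.21 (SE 0.28), Clock 0.18 (SE 0.31) and Nr1d1 -0.13 (SE 0.34). Leaving out single libraries turned the sign of Per1, Per3, Cry2, Clock and Nr1d1. None of the 10 members had groups that did not overlap, beside 2.38% of all features, and none of the 9 other than Npas2 had an unadjusted limma p under 0.05, beside 3.89% (568 of 14611 features). No feature was called at an adjusted p under 0.05 (percent called 0). Of the 9 members other than Npas2, 5 had a positive and 4 a negative difference, with a median of 0.18. The median over all features was 0.02, and 52.1% of them were positive.

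**Figure D2:**
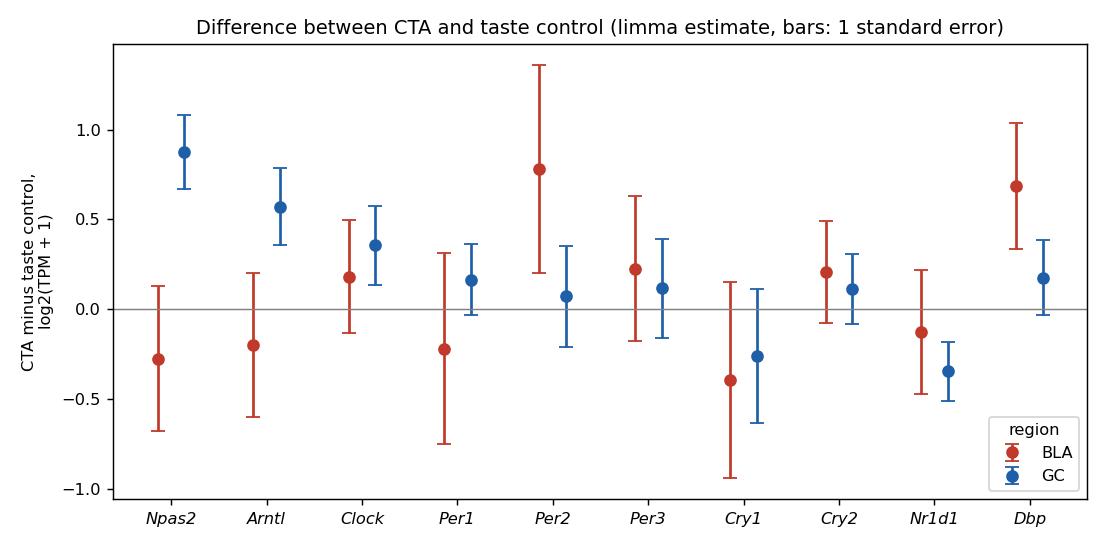
Difference between CTA and taste control on the log2(TPM + 1) scale (vertical axis) for each of the 10 transcripts in BLA and GC neurons, as limma estimates with bars of 1 standard error (n = 4 libraries per group). Npas2 sits at -0.28 in the BLA and 0.87 in the GC, Arntl at -0.20 and 0.57, and of the other members Per2 at 0.78 and Dbp at 0.68 in the BLA lie farthest from 0.

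Whether the effect of training differed between the regions was asked of the region by training term, fitted to the 16 libraries together, which is the BLA effect minus the GC effect. For Npas2 the term was -1.15 (SE 0.46), given as a description. For Arntl it was -0.77 (SE 0.42), for Per2 0.71 and for Dbp 0.51, each with an adjusted p of 0.9995. No feature had an adjusted p under 0.05 for this term (percent called 0), and 601 of 15191 (3.96%) had an unadjusted p under 0.05. For none of these transcripts did a regional difference in the response pass the test.

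Npas2 and Arntl moved together from library to library, with the widest spread of both in the taste controls of the BLA. They did so less in BLA neurons after CTA. There, libraries 1 and 4 held 20.5 and 48.9 TPM of Npas2, with 18.8 and 19.1 TPM of Arntl. In taste controls of the BLA, libraries 2 and 3 held 65.1 and 58.8 TPM of Npas2, 29.8 and 31.5 TPM of Arntl, and 6.92 and 3.06 TPM of Per2. Libraries 1 and 4 of the same group held 31.2 and 24.8 TPM of Npas2, 17.2 and 12.9 TPM of Arntl, and 22.7 and 19.2 TPM of Per2. Npas2 and Arntl were high where Per2 was low, within a single group of mice given the same treatment, whereas Clock was much alike in the 4 libraries (34.0 and 37.8 TPM in libraries 2 and 3, 37.8 and 35.1 TPM in libraries 1 and 4). The 2 libraries low in Per2 also held the most Arntl2, a paralog of Arntl, at 9.98 and 16.7 TPM, against 3.53 and 1.77 TPM in libraries 1 and 4. Dbp and Nr1d1, also targets of the pairs, did not split these libraries as Per2 did. Dbp had 17.4 and 42.6 TPM in libraries 2 and 3, against 41.2 and 35.2 TPM in libraries 1 and 4. Nr1d1 had 70.2 and 73.5 TPM, against 94.5 and 51.9 TPM.

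Over all 16 libraries the levels of Npas2 and Arntl had a Pearson r of 0.78 on the log2(TPM + 1) scale, and of 0.80 when each library was taken as its deviation from the mean of its group. Per2 had an r of -0.48 with Npas2 over all libraries and -0.69 over the deviations, Cry2 0.53 and 0.67, and Clock 0.39 and 0.28. Over the deviations the remaining members gave -0.10 (Nr1d1), -0.05 (Per1), -0.03 (Dbp), 0.09 (Cry1) and 0.28 (Per3). The taste controls of the BLA had the widest spread of Npas2, Arntl and Per2, so they weighed most in these r over the deviations. All r values here are descriptions over libraries that share a scale adding up to a fixed total. A library rich in a few transcripts shifts all others. Among the 5494 features with a mean of at least 30 TPM, those most like Npas2 were Nudc (r 0.78), Slc25a14 (0.76), Phkg2 (0.76), Snx17 (0.73) and Tmem222 (0.73). Arntl, whose mean of 25.1 TPM kept it out of that set, had a higher r over all 16 libraries than any of the 5494. Over the deviations from group means, Phkg2 (0.88) and Snx17 (0.86) were above Arntl (0.80). Features under a mean of 30 TPM, the members aside, were not ranked.

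**Figure D3:**
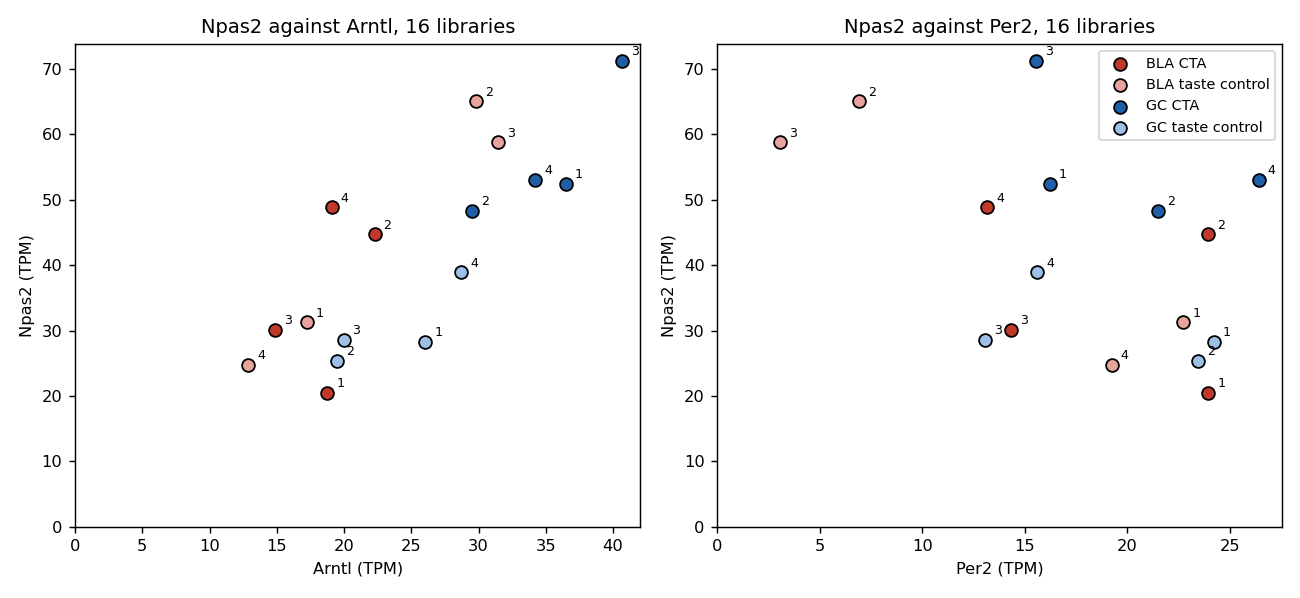
Npas2 in TPM (vertical axes) against Arntl (left) and Per2 (right) in TPM, 1 point for each of the 16 libraries, with region and training marked. Npas2 and Arntl vary together across the points (r 0.78 on the log2(TPM + 1) scale), while the lowest Per2 points, 2 taste control libraries of the BLA at 3.06 and 6.92 TPM, are among the highest for Npas2.

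Between the regions, Nr1d1 and Per1 were lower in BLA neurons than in GC neurons, and the other members did not pass the test. The comparison carried a shift of all features. Thy1 alone took 64127 to 89098 TPM in BLA libraries and 26938 to 53946 TPM in GC libraries, and its part in the shift was not tested. The median difference over the 15191 features tested was -0.23, and 2986 features (19.7%) were called, 15.4% lower and 4.24% higher in the BLA. Rescaling each library by its median ratio moved that median to -0.12 and the calls to 899 higher and 1700 lower, and quantile normalization to 0.02, with 1076 higher and 1425 lower, beside 644 higher and 2342 lower as deposited. Beside these shares, 2 of the 9 members other than Npas2 were called lower. Of these 9, 8 had a negative difference (31.8% of all features had a positive one), and their median of -0.45 was lower than that of all features.

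Nr1d1, the REV-ERB alpha repressor, had 69.7, 90.0, 86.3 and 32.6 TPM in BLA neurons after CTA and 94.5, 70.2, 73.5 and 51.9 TPM in BLA taste controls, against 90.9, 108, 142 and 103 TPM in GC neurons after CTA and 157, 146, 140 and 119 TPM in GC taste controls. Only the highest BLA library was above the lowest GC library. The mean level in the BLA was 0.565 of that in the GC, a log2 difference of -0.86 (SE 0.19, adjusted p = 0.00289, exact permutation p = 0.000311), and the adjusted p ran between 0.00156 and 0.0128 over the alternatives. The groups did not overlap within the taste controls (-0.97, SE 0.21, adjusted p = 0.0159) or within the CTA libraries (-0.75, adjusted p = 0.192), as was the case for 16.1% and 14.6% of all features. The call in the taste controls was lost without GC taste control 1 (adjusted p = 0.0596) or GC taste control 2 (0.0567).

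Nr1d1 lies at chr11:98767932-98775333 on the minus strand (GRCm38), and 263 of its exonic bases, 8.55%, are shared with the antisense gene Thra, the thyroid hormone receptor alpha. Use of strand in the counting is not stated, so reads from the shared bases cannot be told apart. Thra differed in the other direction, 389 ± 54.9 TPM in BLA neurons and 297 ± 26.9 TPM in GC neurons (log2 difference 0.38, adjusted p = 0.00819).

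Per1, a period gene at chr11:69095217-69109960 that also responds quickly to neuronal activity through CREB, had 11.2, 34.1, 12 and 10.3 TPM in BLA neurons after CTA and 36.6, 20.2, 8.35 and 14.5 TPM in BLA taste controls, against 29.2, 42.9, 31.9 and 40.2 TPM in GC neurons after CTA and 31.8, 29.5, 33.4 and 32.1 TPM in GC taste controls. Of the 8 BLA libraries, CTA 2 and taste control 1 reached the GC range and the others stayed below it. The mean in the BLA was 0.543 of that in the GC, with a log2 difference of -1.02 (SE 0.28, adjusted p = 0.0130, exact permutation p = 0.00513), and the adjusted p ran between 0.00260 and 0.0492 over the alternatives. Within the taste controls the difference was -0.83 (adjusted p = 0.241). After CTA it was -1.21 (adjusted p = 0.0909), or -1.59 with an adjusted p of 0.0107 without BLA CTA 2.

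The activators showed less. Npas2 differed by -0.11 (SE 0.26) over all libraries, which turned positive under median-ratio rescaling (0.01), quantile normalization (0.03) and without BLA CTA 1 (0.04), and is made up of 0.46 in the taste controls and -0.69 after CTA. Arntl differed by -0.50 over all libraries (adjusted p = 0.130) and by -0.88 after CTA (SE 0.27, adjusted p = 0.0801), where its groups did not overlap, while in taste controls its difference of -0.11 turned positive under median-ratio rescaling (0.03) and quantile normalization (0.12). Clock differed by -0.43 (adjusted p = 0.0968), and passed the test without BLA CTA 4, at an adjusted p of 0.0414.

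The other outputs and repressors overlapped between the regions over all libraries. Dbp gave -0.43 (adjusted p = 0.150), Cry1 -0.51 (0.227), Per2 -0.45 (0.379), Per3 -0.35 (0.317) and Cry2, the least different member, 0.03 (0.926). Within the taste controls, Nr1d1 was the single member called, beside 7.97% of 15085 features (6.15% lower). Dbp also had no overlap there, at 17.4 to 42.6 TPM in BLA taste controls, against 42.9 to 65.1 TPM in GC taste controls, but was not called (exact permutation p = 0.0286, adjusted p = 0.225). After CTA none of the 9 was called, beside 6.59% of 15077 features (4.88% lower), and 3 of the 9 had an unadjusted p under 0.05, beside 21% of all features.

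**Figure D4:**
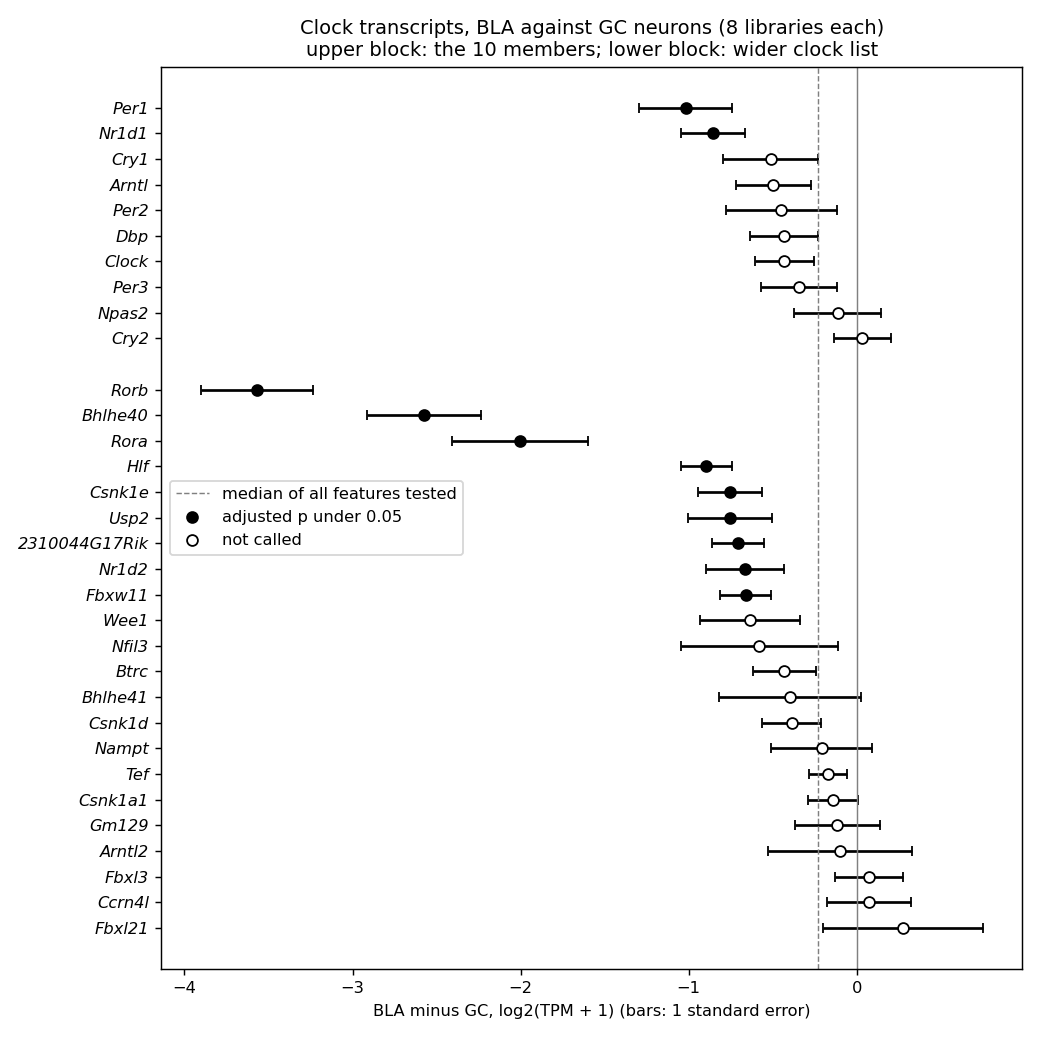
Difference between BLA and GC neurons on the log2(TPM + 1) scale (horizontal axis; negative means lower in the BLA) for the 10 members and the 22 genes of a wider clock list that passed the filter, as limma estimates over 8 libraries per region with bars of 1 standard error. Rorb at -3.57 and Bhlhe40 at -2.57 lie farthest from the median over all features of -0.23, and Nr1d1 at -0.86 and Per1 at -1.02 are the members that passed the test.

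A wider list of 24 clock genes, chosen by their known role, included larger regional differences than any member showed. Of the 22 of them that averaged 1 TPM or more, 9 were lower in the BLA at an adjusted p under 0.05 and none higher, beside 15.4% lower and 4.24% higher among all features, and the median was -0.51. The 3 largest were those of Rorb, Bhlhe40 and Rora, of which Rorb and Rora encode nuclear receptors that activate Arntl through ROR elements. Rorb had 0.08 to 1.09 TPM in BLA neurons after CTA and 0.30 to 5.54 TPM in BLA taste controls, against 19.4 to 24.4 TPM in GC neurons after CTA and 22.4 to 41.5 TPM in GC taste controls. The regions did not overlap, at a log2 difference of -3.57 (adjusted p = 2.00e-07). Rorb is also a known marker of a cortical layer.

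Rora averaged 5.97 TPM in the BLA and 17.6 TPM in the GC (-2.0, adjusted p = 0.00125). Its BLA CTA 4 library stood at 27.9 TPM and the other 7 BLA libraries between 1.17 and 6.69 TPM. Bhlhe40, which encodes the DEC1 repressor of E-box genes and is induced by activity, averaged 52.4 TPM in the BLA and 274 TPM in the GC (-2.57, adjusted p = 1.64e-05), without overlap. Hlf, a relative of DBP that binds the same D-boxes, averaged 84.6 TPM in the BLA and 154 TPM in the GC (-0.90, adjusted p = 0.000255).

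The remaining 5 calls were smaller. They were 2310044G17Rik (-0.71, adjusted p = 0.00269), an older name of Cipc, a repressor of CLOCK, Fbxw11 (-0.66, 0.00339), a ubiquitin ligase subunit that acts on PER proteins, Csnk1e (-0.75, 0.00842), a kinase that phosphorylates them, Usp2 (-0.75, 0.0396), a deubiquitinase, and Nr1d2 (-0.66, 0.0488), the REV-ERB beta repressor. Usp2 and Nr1d2 lost the call under both rescalings, without the filter, without the variance trend and with the replicate number as a block. Leaving out a single library ended the call of Nr1d2 for 12 of the 16 libraries (all but those numbered 3, adjusted p up to 0.104) and of Usp2 for 11 (up to 0.0757). Within the taste controls, Rora, Rorb, Bhlhe40 and Hlf were called, and after CTA Rorb, Bhlhe40 and Hlf. In the taste controls Hlf lost its call without any 1 library but BLA taste control 3 (adjusted p up to 0.142), under either other pseudocount, both rescalings, no filter and no trend, and with the replicate block (0.104), and Bhlhe40 without GC taste control 1 (0.0557). After CTA Hlf lost it without GC CTA 1, 2 or 4 (up to 0.0703) and with no trend (0.0631).

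Training moved none of the wider list past the test. In the BLA its smallest limma p-values belonged to Fbxl21 (1.56), a ligase subunit acting on CRY proteins, Arntl2 (-1.34) and Nfil3 (1.25), the D-box repressor E4BP4, each with an adjusted p of 0.999. In the GC they belonged to Bhlhe41 (-1.09, unadjusted p = 0.0372), which encodes the DEC2 repressor, Bhlhe40 (0.37, 0.0470) and Rorb (-0.48, 0.0660), each with an adjusted p of 0.9996. The medians over the list were -0.04 in the BLA and 0.03 in the GC.

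Markers of other cells were checked beside these levels, as summed TPM over 6 genes for each cell type. Projection neuron markers summed to 2004 to 2632 TPM in BLA libraries and 2899 to 3648 TPM in GC libraries, and each of the 6 genes had a median above 1 TPM in every group. Astrocyte markers summed to 4.82 to 39.4 TPM in the BLA and 77.6 to 208 TPM in the GC. Like the projection neuron sums, these were lower in the BLA, as were Nr1d1, Per1, Rorb, Bhlhe40 and most features tested. All 6 astrocyte genes had a lower median in the BLA than in the GC, from Aldoc at 2.17 and 68.7 TPM through Slc1a3 at 2.96 and 8.76, Gja1 at 0.51 and 2.13, Aqp4 at 0.105 and 1.58 and Aldh1l1 at 0.06 and 1.29 to Gfap at 0.08 and 0.315 TPM. Gfap and Aldh1l1 were each at 0 in 3 BLA libraries. Oligodendrocyte sums were also lower in the BLA, at 14.8 to 127 TPM, against 110 to 401 TPM in the GC, with overlap. Between the training groups of the GC these sums overlapped but with a lower median after CTA, at 110 to 165 TPM after CTA (median 137) and 115 to 401 TPM in taste controls (median 280), beside the values of Npas2, Arntl and Nr1d1. Of their defining transcripts Mog was at 0 in 2 and Mag in 5 of the 8 GC libraries. Interneuron markers reached at most 134 TPM, microglial markers 31.1 TPM and vascular markers 22.7 TPM in any library. Among them Pvalb, which marks a class of interneurons, was at 0 in all 8 BLA libraries and at 2.05 to 81.0 TPM in the GC libraries. Gad1 also had a lower median in the BLA (0.995 against 3.995 TPM). Other interneuron genes lay the other way, with medians higher in the BLA than in the GC. These were Gad2 (23.55 against 7.77 TPM), Sst (4.055 against 0.49) and Slc32a1 (2.49 against 0.605). Vip had a median of 0 in both regions. The part of any of these cells in the clock transcripts was not tested, and in sorted pools fewer cells of a type and less RNA per cell cannot be told apart.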

How the data were processed

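The authors trimmed single-ended reads of 50 bases, aligned them to mm10 with TopHat (version not given in the sources used here) and computed expression from unique reads with in-house scripts. The 2 deposited tables, 1 per region, hold TPM per library. Their columns of group means, ratios and p-values were not used. TPM carries no counts, and the methods state a typical read number but none per library, so each library's own depth is unknown and the libraries' spread is the only measure of precision. Each library added up to 1000000 TPM within rounding, with 15850 to 17202 features above 0 in the BLA and 17982 to 18340 in the GC.

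Tests were run on log2(TPM + 1), which understates changes of low genes, with limma 3.58.1 in R 4.3.3 (variance trend on the mean, two-sided, Benjamini-Hochberg over all features tested, called at an adjusted p under 0.05). A feature entered if it averaged 1 TPM or more in the comparison, and all members did. Single members were also tested by exact permutation of mean TPM. The fit was tested on simulated data. Region was fitted with training as a term. BLA and GC cells were sorted and tabulated separately, so region and any difference in handling cannot be told apart.

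The members and lists were chosen with earlier results of these data known. All members were named in each comparison, of the wider list any gene called and the 3 with the smallest limma p, and of all features the 5 most like Npas2. The alternatives were pseudocounts of 0.1 and 5, omission of the filter, minimum means of 5 and 30 TPM, rescaling by median ratio or by quantiles, a fit with no variance trend, weights on libraries, summing of repeated names, the replicate number as a block, and omission of single libraries. Positions are from GENCODE and windows from RefSeq, on GRCm38.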

Additional observations from a re-analysis of the deposited data

Results flagged for a closer look

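Of 40 sets of 4 libraries (10 members in 4 groups), 2 held a library far from the others by Dixon's criterion (gap over range above 0.829), and chance flags about 1 in 20 such sets. Per1 stood at 34.1 TPM in BLA CTA 2, while CTA 1, 3 and 4 of the BLA lay between 10.3 and 12 TPM. Clock stood at 33.4 TPM in GC taste control 3, while GC taste controls 1, 2 and 4 lay between 50.4 and 51.8 TPM.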

How the results depend on the processing

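Of the 9 members other than Npas2, none was called for training, in the BLA or the GC, or for the region by training term under any alternative run. Over all libraries, 2 members were called lower in the BLA under each alternative but a mean of at least 30 TPM, under which 1 was called, since Per1 has a lower mean and was not tested, and the omission of BLA CTA 4, under which Clock joined them, 3 in all. Within the taste controls the members called were 0 without the trend on the mean and 0 to 1 with a library left out, and the wider list gave 2 calls without the filter, 2 at a mean of at least 30 TPM, 2 without the trend (Hlf and Bhlhe40 lost the call there and without the filter) and 2 to 4 with a library left out. After CTA, 1 member (Arntl, adjusted p = 0.0499) was called without the filter, and 0 to 1 with a library left out. Arntl in taste controls, BLA against GC, was 0.028 under median-ratio rescaling and 0.12 under quantile normalization. With a library left out it ran between -0.29 and 0.12. CTA minus taste control in the BLA then ran between -0.017 and 0.30 for Clock, -0.0037 and 0.35 for Cry2, -0.28 and 0.20 for Nr1d1, -0.60 and 0.12 for Per1 and -0.023 and 0.45 for Per3. In the GC it ran between -0.0038 and 0.24 for Cry2, -0.084 and 0.20 for Per2 and -0.14 and 0.26 for Per3, and BLA minus GC between -0.042 and 0.13 for Cry2. Npas2, BLA against GC over all libraries, ran between -0.26 and 0.04. Its sign changed under 2 other settings and without 1 library, and its sign in the other comparisons did not. Of the differences of genes other than Npas2, 603 kept their direction and side of the threshold under the other settings, 2 reversed, 21 lost and 1 gained the call, and with a library left out 593 kept them, 17 reversed, 36 lost and 2 gained it. The causes were not tested.

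Replicate numbers are shared between groups, but they did not meet the criterion for pairs, an r over 0.1 between the deviations of each same-numbered pair. For CTA and taste control libraries r lay between -0.16 and 0.08 in the BLA. In the GC it was positive in all 4 pairs, between 0.06 and 0.39, and 4 of 8 libraries correlated best with their own number. Between BLA and GC libraries of the same number, r lay between -0.27 and 0.03 in taste controls and between -0.37 and 0.20 after CTA. With the replicate block, 0 members were called for training in the BLA, 0 in the GC and 0 for the region by training term, and BLA against GC gave 2 over all libraries, 1 in taste controls and 0 after CTA, while the wider list gave 7, 3 and 3. What limits these comparisons is the unknown depth of each library and 4 libraries per group. Where 4 libraries are set against 4, no exact p below 0.0286 is possible.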
